A study of Homo sapiens with 16 samples.

Results

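Macro-M1 is the name that the deposited annotation gave to 1 of 7 clusters of monocytes and macrophages in mouse mammary tumors, and its members were taken as every cell carrying that name. After each cell barcode found in more than 1 long-term pool was counted once, at its deepest copy, 2188 of 48824 cells were Macro-M1 cells (2255 of 53946 as deposited). The tumors were LPA1-T22 (T22), which is sensitive to PARP inhibitors, and LPA1-T127 (T127), which is resistant. Each is a transplant line that goes back to a transgenic mouse with the LPA1 receptor expressed in mammary epithelium. Chunks were placed in the mammary fat pad of female FVB mice obtained at 6 weeks of age, which kept their own immune system. Mice received vehicle or olaparib, a PARP inhibitor, by mouth at 50 mg/kg daily. The long-term experiment lasted 20 days and held T22 and T127 tumors, grown alone (single strain) or on opposite fat pads of 1 mouse (co-transplantation), in 8 pools. The short-term experiment lasted 4 or 8 days, with 4 pools of T22 tumors and 4 of T127 tumors. Every pool mixed hashtagged tumors, vehicle and olaparib together. The organism field of the labels says Homo sapiens, while the hosts were FVB mice and the gene symbols are those of mouse.

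Macrophages take up cells and debris and present the resulting peptides to CD4 T cells on MHC class II molecules. The M1 and M2 names come from cultured macrophages. M1 stands for the state induced by interferon gamma and bacterial products, with nitric oxide synthase, interleukin-12, interleukin-1, TNF and the chemokines Cxcl9 and Cxcl10, and M2 for the state induced by interleukin-4, with arginase, the mannose receptor Mrc1 and chitinase-like proteins. In tumors, macrophages renewed from blood monocytes mix with long-lived resident ones that carry Lyve1 and Folr2, and many express both kinds of genes.

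Each measured RNA molecule carried a unique molecular identifier (UMI), and the level of a gene is its UMIs summed over the cells of a cluster in 1 experiment, or in 1 pool, divided by all UMIs of those cells and given as counts per 1000000 (CPM). The long-term pools held 34755906 to 44032925 UMIs in all and the short-term T22 pools 40270841 to 42436039. A Macro-M1 cell had a median of 11639 UMIs in the long-term and 13810 in the short-term T22 pools, close to the 11168 and 13221 of the Macro-M2 cluster. The CD16-CDKN1C cluster, to which Macro-M1 is also compared, was the shallowest, with medians of 4706 and 2407 UMIs. Which cell came from which tumor is not given in the files used here. Vehicle and olaparib, single strain and co-transplantation, and 4 and 8 days were therefore not compared, and T22 and T127 hosts were mixed in the long-term pools. The labels do not say which animals or tumors a pool holds, so pools were not taken as animals. Each experiment was treated as 1 sample, and because the cluster was cut from the same genes that are described, all differences between clusters are given as descriptions with no test. Intervals at 95% (exact Poisson for levels, binomial for ratios and shares) cover counting error only.

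Some libraries stood apart. In the long-term pools 4146 barcodes occurred in more than 1 pool, with 5122 shallower copies, against 20 such barcodes among the short-term T22 pools. Of the Macro-M1 cells, 245 had such a barcode, and 345 shallower copies of them existed, with a median of 1703 UMIs, of which 305 were named CD16-CDKN1C and only 30 Macro-M1. Macro-M1 cells of long-term pools 1 to 4 also differed from those of pools 5 to 8, and no label says how these pools differ. The hemoglobin gene Hbb-bs stood at 827 to 952 CPM in pools 1 to 4 and at 2164 to 2725 CPM in pools 5 to 8, and Il1b at 3595 to 3888 CPM and 5308 to 5806 CPM. Values over the long-term pools therefore span both sets, and a gene was counted as higher or lower than in another cluster only where every pool showed that direction.

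Macro-M1 cells made up 3.82% of long-term cells (3.59 to 4.06%), with 2.38% the lowest, 4.18% the median and 4.49% the highest of the 8 pools. The lowest shares were those of pools 1 and 2, at 2.38% and 2.51%. Among short-term T22 cells the share was 7.97% (7.54 to 8.41%), and pools 1 to 4 held 8.06%, 7.61%, 8.24% and 7.96%. The ranges did not overlap. Within the 7 monocyte and macrophage clusters the shares were 6.36% and 15.3%. In the short-term T127 pools only 3 of 8007 cells bore the name, all in pool 2, which is 0.0375% (0.00773 to 0.109%), although 2200 cells there were monocytes or macrophages. Levels in T127 tumors were therefore not described. The same T127 pools held 1174 Macro-M2 cells, so long-term Macro-M2 may mix the 2 strains in other proportions than Macro-M1. Long-term differences between these clusters cannot be told apart from tumor strain. Length of treatment, tumor strain, co-transplantation and the set of pools cannot be told apart between the experiments. Only the long-term pools held tumors of both strains and co-transplanted tumors.

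The name was first checked against markers. Genes that most macrophages share were present, such as Csf1r, the receptor for the growth factor CSF-1, at 632 CPM long-term and 1165 CPM in T22, and Adgre1, which encodes F4/80, at 105 and 152 CPM. Summed over 8 such genes, Macro-M1 held 11823 CPM long-term and 9661 CPM in T22, against 12457 and 11848 CPM in Macro-M2. Of the 8, 0 were higher and 1 lower than in Macro-M2 long-term (median log2 ratio -0.12). In T22 0 were higher or lower (median -0.27). The 4 marker genes of the name were Cd14, a co-receptor for bacterial lipopolysaccharide, Cd74, the invariant chain that escorts MHC class II, and H2-Aa and H2-Ab1, the alpha and beta chain of an MHC class II molecule. All 4 were highest in Macro-M1 among the 7 clusters in the long-term pools. In T22 this held for H2-Aa and H2-Ab1. Cd74 was level with Macro-others there (14256 against 14262 CPM). Cd14 ranked 4 of 7 in T22, at 984 CPM against 1518 CPM in Macro-M2. Of the M1 genes in the cultured sense, Nos2, the inducible nitric oxide synthase, was hardly detected, with 0.170 CPM (0.0206 to 0.615) long-term and 0 UMIs in T22, which allows up to 0.210 CPM. The name Macro-M1 is used below only as the deposited label. High MHC class II levels were not particular to it, since CD14-IL1B and Macro-others came close, as described below.

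Most markers of other cell types were low in Macro-M1 cells, with the exception of Bst2 and of red cell genes in the long-term pools. The 5 erythroid genes summed to 2978 CPM long-term (pools 1224 to 4769) and 0.456 CPM in T22. The other clusters held them too long-term, with 2751 CPM in Macro-M2 and 4985 CPM in CD16-CDKN1C. The summed level of 6 T cell genes was 44.9 CPM long-term and 36.6 CPM in T22, of 4 B cell genes 11.9 and 16.5 CPM, of 4 NK cell genes 16.8 and 18.5 CPM, of 5 fibroblast genes 59.6 and 35.0 CPM, and of 4 endothelial genes 13.1 and 8.67 CPM. Of 6 neutrophil genes, which summed to 159 and 51.7 CPM, S100a8 and S100a9 made up most and Ly6g was at 0. The T22 sum rested on pool 2 with 173 CPM, against 12.0 to 13.8 CPM in the other pools, and the long-term pools ranged from 26.8 to 524 CPM. The 6 epithelial genes summed to 96.8 and 177 CPM, with Epcam the largest part (47.1 and 123 CPM). The 4 plasmacytoid dendritic cell genes summed to 715 and 360 CPM, beside 858 and 452 CPM in Macro-M2. Only Bst2 among them, which interferon also induces, exceeded 10 CPM. The 4 mast cell genes summed to 10.0 and 0.0571 CPM, with Mcpt8 at 0 in both and Cpa3 and Ms4a2 at 0 in T22. Their part in the results below was not tested. Conventional dendritic cell genes are described with the T22 cells that held them.

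Set against the mean of the other 6 clusters long-term, more genes counted as lower than as higher in Macro-M1. Counted by the rule given next, 9 of 9 classical monocyte genes and 4 of 7 resident macrophage genes were lower. Of 9 MHC class II genes 0 were higher (median log2 ratio 0.34), of 13 genes of lipid-associated macrophages 2 were higher and 2 lower, of 11 cytokine genes 1 and 0, and of 19 chemokine genes 2 and 6. A gene counted as higher or lower where the levels differed at least 2-fold (with 1 CPM added to each side), their mean was at least 10 CPM, and every pool with at least 20 cells of both sides showed the same direction. Against the mean of the other 6 clusters, 25 of 6776 genes (0.369%) were higher in Macro-M1 long-term and 269 (3.97%) lower. Within a pool, the mean of the other clusters took in only those with at least 20 cells. CD14-PF4 entered it in 0 of the 8 long-term pools and in 1 of the 4 T22 pools. The counts also depend on the reference. With the UMIs of the other 6 clusters summed, 2 were higher and 102 lower, and without CD14-IL1B and CD14-PF4 4 were higher. Of the 25 genes, 23 fell under 2-fold against the summed UMIs, with Gbp2b (log2 ratio 1.30) and Mmp13 (1.02) the others, and 21 without CD14-IL1B and CD14-PF4, where Dnase1l3 and H2-M2 also stayed at 2-fold. The genes that fell under 2-fold with both include Il1a, Ccl3, Cxcl10, Gbp3, Acp5, Nr1h3, Apoe and Lpl, which are described below. The median log2 ratio over all genes was -0.13. Against Macro-M2 alone, 5 of 6650 genes (0.0752%) were higher and 165 (2.48%) lower. The same counts in T22 were 2 of 7483 (0.0267%) higher and 120 (1.6%) lower against the mean of 6, and 61 of 7383 (0.826%) higher and 77 (1.04%) lower against Macro-M2. They moved as well. Against the mean of 6 in T22, 13 were higher without CD14-IL1B and CD14-PF4, and 25 lower with summed UMIs, while 226 were lower without the Macro-M1 cells that held dendritic cell genes, described below. With a pseudocount of 10 CPM 27 were higher than in Macro-M2. Of the genes tested, Macro-M1 was the highest of the 7 clusters in 597 of 6961 (8.58%) long-term and in 357 of 7533 (4.74%) in T22. Of the 6441 genes tested against Macro-M2 in both experiments, 120 were lower long-term and 69 in T22, with 38 in both lists, which is 31.7% of the first and 55.1% of the second. Of the 5 and 31 higher, 0 were in both, which lists this short say little about.

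MHC class II genes were high in Macro-M1 in both experiments, and further above Macro-M2 in the long-term pools. Both clusters were cut with these genes, so the values describe the cluster. Long-term Cd74 stood at 15133, 19755 and 21828 CPM in the lowest, median and highest pool of Macro-M1, and ranged from 9081 to 14571 CPM in Macro-M2. H2-Aa stood at 12576, 16925 and 22962 CPM, against 6112 to 14731 CPM in Macro-M2, and H2-Ab1 at 15809.7, 17725 and 19172 CPM, against 8683 to 10425 CPM. For Cd74 and H2-Ab1 the lowest Macro-M1 pool lay above the highest Macro-M2 pool, whereas the ranges of H2-Aa overlapped, with Macro-M1 the higher in 8 of 8 pools. Over all cells the ratio of Macro-M1 to Macro-M2 was 1.63 (95% interval 1.62 to 1.64) for Cd74, 1.56 (95% interval 1.55 to 1.57) for H2-Aa and 1.85 (95% interval 1.84 to 1.86) for H2-Ab1, so that none of them reached 2-fold. Of 9 MHC class II genes tested 0 were higher or lower by that rule in either experiment. The median log2 ratio of the 9 genes was 0.49 long-term, against -0.09 over all genes, and 0.26 in T22, against 0.01.

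In short-term T22, Cd74 stood at 13600.2, 14503, 15480 and 13553 CPM in pools 1 to 4 of Macro-M1 and ranged from 11355 to 14283 CPM in Macro-M2, so that the pools overlapped. H2-Ab1 stood at 16573, 17224, 16414 and 15992 CPM, against 12211 to 14125 CPM, without overlap. The ratio to Macro-M2 was 1.15 (95% interval 1.14 to 1.16) for Cd74 and 1.28 (95% interval 1.27 to 1.29) for H2-Ab1, smaller than in the long-term pools for both. The accessory genes of peptide loading were less apart. H2-DMa, part of the catalyst that loads peptides, stood at 677 CPM in Macro-M1 and 595 CPM in Macro-M2 long-term, and at 746 and 753 CPM in T22. Ciita, the transactivator of the MHC class II genes, stood at 48.4 against 32.8 CPM long-term and 142 against 119 CPM in T22. MHC class I genes, which present peptides to CD8 T cells, did not set the cluster apart, with a median log2 ratio to Macro-M2 of -0.01 over 8 genes long-term and 0.01 over 9 in T22.

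Summed over 10 MHC class II genes, Macro-M1 had 55506 CPM long-term, followed by CD14-IL1B with 48082 CPM, Macro-others with 43192 CPM, CD16-CDKN1C with 36921 CPM and Macro-M2 with 33628 CPM. Pools of Macro-M1 ranged from 48864 to 63097 CPM. Those of CD14-IL1B ranged from 44899.5 to 52048.5 CPM and reached into the Macro-M1 range. Those of Macro-others, from 36309.7 to 49485 CPM, overlapped it at the edge. The Macro-M1 pools split here as well, at 59398 to 63097 CPM in pools 1 to 4 and 48864 to 54567 CPM in pools 5 to 8. In T22 the sum was 44937 CPM, at 44718, 46626, 45178 and 43366 CPM in pools 1 to 4, next to 42559.9 CPM in Macro-others with pools from 41003 to 43596 CPM. The pool ranges of these 2 clusters just overlapped in T22.

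**Figure D1:**
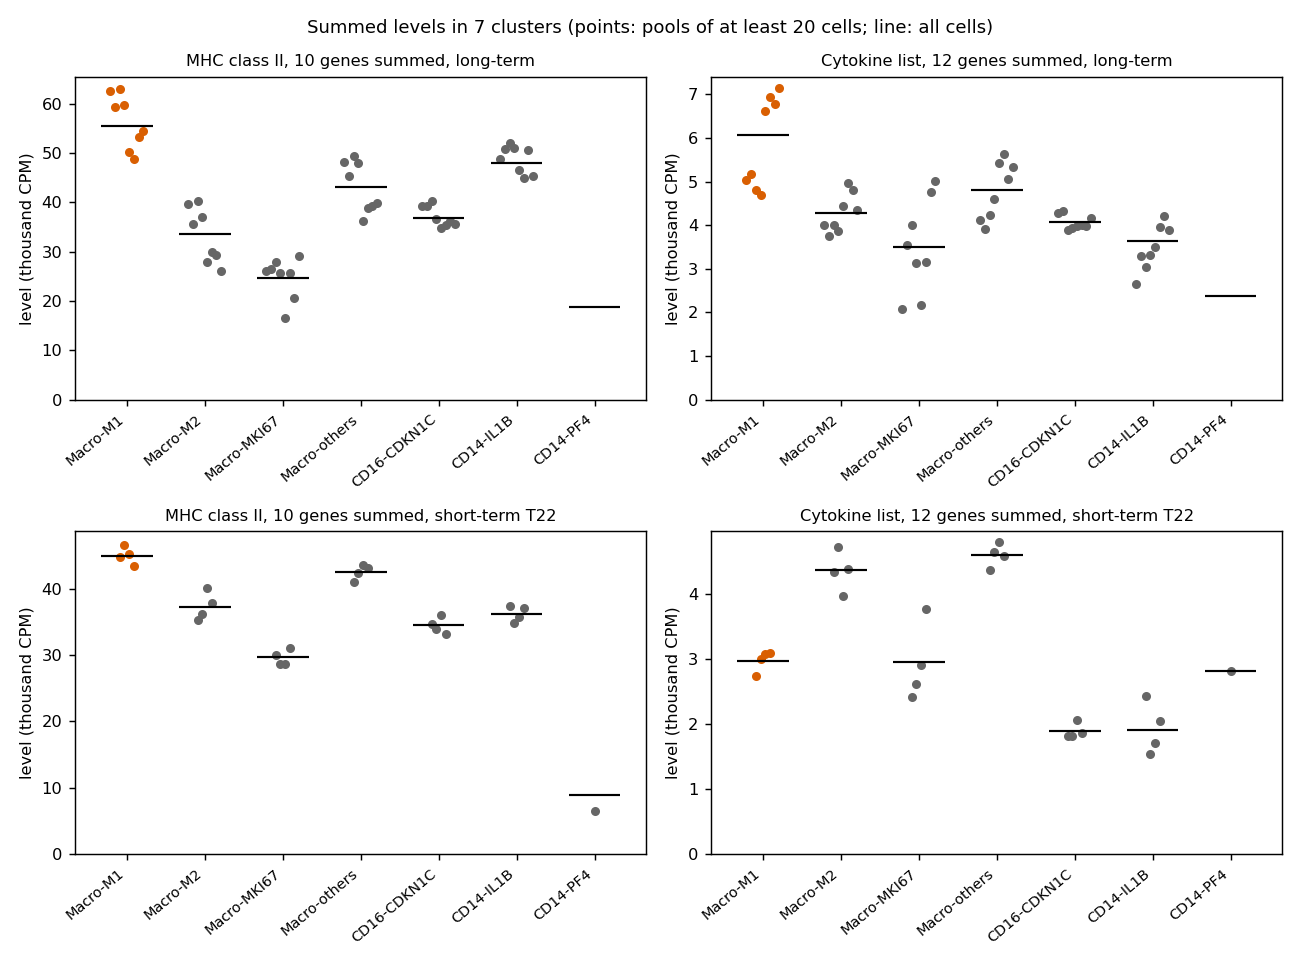
Summed level (CPM) of 10 MHC class II genes and of 12 cytokine genes in each of the 7 monocyte and macrophage clusters, in the long-term and the short-term T22 pools; points are pools with at least 20 cells of the cluster and the line is the level over all cells. Long-term Macro-M1 pools hold 48864 to 63097 CPM of MHC class II, against 26006 to 40354 CPM in Macro-M2, while the cytokine sum of Macro-M1 is 6068 CPM long-term and 2978 CPM in T22.

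Single cells showed the same order. With each cell thinned to 3000 UMIs, the label's MHC class II markers with H2-Eb1 took a median of 5.67% of a Macro-M1 cell's UMIs long-term, with 1.90% and 8.87% as 5th and 95th percentile over 965 cells. The median was 3.20% in Macro-M2 and 4.43% in Macro-others. Cells with less than 1% of their UMIs in these genes were 2.59% of Macro-M1 and 32.2% of Macro-M2. In T22 the medians were 4.37% and 3.68%, and the cells under 1% were 2.08% and 9.10%. Other clusters were close to Macro-M1 in T22, with a median of 4.27% and 5.07% of cells under 1% in Macro-others, and 2.10% under 1% in CD14-IL1B.

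Summed over 16 genes that mark M1 macrophages in culture, Macro-M1 held 6330.2 CPM against 4474 CPM in Macro-M2 long-term, and 2937 against 4487 CPM in T22. Of 12 such genes tested, 0 were higher and 0 lower than in Macro-M2 long-term (median log2 ratio 0.22), and 0 higher and 3 lower in T22 (median -0.51), namely Tnf, Cxcl9 and Cxcl10. Macro-M1 was the highest of the 7 clusters for 5 of the 12 long-term, Il1b, Tnf, Cd86, Cxcl9 and Cxcl10, and for 0 in T22. Il1b, the gene of interleukin-1 beta, stood at 3595, 4598 and 5806 CPM in the lowest, median and highest long-term pool and at 2643 to 3759.9 CPM in Macro-M2, a ratio of 1.54 (95% interval 1.53 to 1.56) over all cells, with Macro-M1 the higher in 8 of 8 pools. In T22, Il1b stood at 1841, 2002, 2137 and 2118 CPM in pools 1 to 4, all below the 2634 to 3280.4 CPM of Macro-M2, a ratio of 0.672 (95% interval 0.661 to 0.683). Tnf was at 84.2 against 57.0 CPM long-term and 77.5 against 171 CPM in T22. Cd86, a costimulator of T cells, was at 204 against 142 CPM and 151 against 162 CPM. Il12b, a subunit of interleukin-12, was at 17.7 and 30.5 CPM in Macro-M1, and Il12a, the other subunit, had 0 UMIs in both.

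A set of 12 cytokine genes, which shares members with the M1 list, Il1b and Tnf among them, had the same split. Its sum was 6068 CPM in Macro-M1 and 4273 CPM in Macro-M2 long-term, and 2978 and 4369 CPM in T22. Il1b made up most of these sums, so the M1 and cytokine sums are not independent. Of the cytokine genes tested, 0 of 11 were higher and 1 lower than in Macro-M2 long-term, and 0 of 10 higher and 1, Tnf, lower in T22. Il1a, the gene of interleukin-1 alpha, was higher than in the mean of the other 6 clusters long-term, at 352 CPM against 173 CPM, and stood at 201 against 212 CPM in T22. The 1 lower long-term was Il18 (44.9 against 96.8 CPM). The anti-inflammatory Il10 stood at 14.3 CPM long-term and 5.14 CPM in T22.

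Chemokine genes went both ways. Macro-M1 was the highest of the 7 clusters long-term for 7 of 19 tested, Ccl3, Ccl4, Cxcl1, Cxcl2, Cxcl9, Cxcl10 and Cxcl16, and for 0 of 17 in T22, while others that attract monocytes were low. Ccl3, besides Cxcl10 the only ligand higher than in the mean of the other 6 clusters, was at 548 CPM against 260.5 CPM in that mean and 333 CPM in Macro-M2. In T22 the order was turned, with 515 against 872 CPM. Ccl4, a chemokine related to Ccl3, stood at 1419, 2345 and 2753 CPM long-term and 1347, 1356, 1485 and 1278 CPM in T22, against 1164 to 1628 and 2235 to 2762 CPM in Macro-M2. The T22 pools of the 2 clusters did not overlap, and Macro-M2 was the higher. Cxcl2, a ligand of the neutrophil receptor Cxcr2, was at 3866 against 3535 CPM long-term and 1586 against 3195 CPM in T22. Cxcl10, which attracts T cells through Cxcr3, was at 522 against 391 CPM long-term. In T22 it was at 134 CPM in Macro-M1, level with the 136 CPM of CD16-CDKN1C and below the other clusters (344 CPM in Macro-M2).

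Ligands of monocyte receptors were lower than in Macro-M2 in both experiments. Ccl2, the main ligand of Ccr2, was at 145 CPM against 653 CPM in Macro-M2 long-term, a ratio of 0.222 (95% interval 0.212 to 0.234), and at 98.3 against 401 CPM in T22. Ccl7 was at 62.1 against 533 CPM and 18.8 against 121 CPM, and Ccl8 at 112 against 1079 CPM and 3.71 against 43.4 CPM. The T22 level of Ccl8 rested on pool 4, and without it Ccl8 stood at 1.24 against 24.5 CPM. Ccl6 (584 against 2003 CPM long-term) and Pf4, a platelet and macrophage chemokine (175 against 1139 CPM), were also lower long-term, as was Ccl9 (131 against 301 CPM). In all, 6 of 18 chemokine genes tested were lower than in Macro-M2 long-term and 0 higher. In T22 8 of 17 were lower and 1, Ccl22, was higher.

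Classical monocyte genes were low in Macro-M1 against the other clusters. All 9 tested were lower in Macro-M1 than in the mean of the other 6 clusters long-term, with a median log2 ratio of -2.70, and 8 of 9 were so in T22 (median -2.74). Against Macro-M2 the counts were 8 of 8 and 7 of 8. Chil3, the chitinase-like Ym1, stood at 3.99, 17.4 and 174 CPM in the lowest, median and highest long-term pool, against 221 to 2772 CPM in Macro-M2, and the ratio over all cells was 0.0357 (95% interval 0.0324 to 0.0392). Long-term pool 7 alone held 174 CPM, and without it the level was 16.1 CPM against 1011 CPM in Macro-M2. In T22 Chil3 stood at 9.34, 5.17, 5.50 and 6.10 CPM, against 83.8 to 113 CPM. Ly6c2, which encodes the monocyte surface protein Ly6C, was at 18.8 CPM against 91.4 CPM long-term and 14.7 against 134 CPM in T22. F13a1, a coagulation factor subunit, was at 20.2 against 224 CPM and 9.13 against 99.8 CPM, and Fn1, fibronectin, at 195 against 766 CPM and 53.9 against 267 CPM. Ccr2, the receptor by which monocytes leave the marrow, was at 12.6 against 28.9 CPM long-term and 45.1 against 71.8 CPM in T22. Macro-others was low in these genes as well, with a sum of 443 CPM beside 345 CPM long-term and 128 beside 254 CPM in T22.

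Resident macrophage genes were lower in long-term Macro-M1 than in Macro-M2, and less so in T22. Summed over 10 genes, long-term Macro-M1 held 1528 CPM (pools 1012 to 2162) against 3516 CPM in Macro-M2. Macro-others (1859 CPM, pools 1467 to 2214) and Macro-MKI67 (1742 CPM) were near Macro-M1. CD16-CDKN1C held 2269 CPM, while CD14-PF4 (1302 CPM) and CD14-IL1B (512 CPM) held less than Macro-M1. Of 8 tested against Macro-M2 long-term, 7 were lower (median log2 ratio -2.78), and of 6 tested in T22, only F13a1 was lower (median -0.79). F13a1 was already described with the classical monocyte genes, so the resident list added no further lower gene in T22. Lyve1, a hyaluronan receptor, was at 2.38 CPM against 33.9 CPM long-term, Folr2, a folate receptor, at 15.6 against 119.9 CPM, and Gas6, a bridge between dying cells and their receptors on macrophages, at 25.9 against 86.3 CPM. The transcription factor Maf was at 149 against 308 CPM. In T22 these genes were scarce in both clusters, with 2 UMIs of Lyve1 in all Macro-M1 cells and Folr2 at 2.40 against 2.97 CPM.

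Of the M2 genes of cultured macrophages, 4 of 12 tested were lower in Macro-M1 than in Macro-M2 long-term and 0 higher, and 4 of 11 were lower and 1 higher in T22. The summed level of the 16 genes ranged from 349 to 1792 CPM over the long-term Macro-M1 pools, and Macro-others lay within this range (625 to 1248 CPM). In T22 Macro-M1 held 506 CPM, more than the 353 CPM of Macro-others and the 388 CPM of CD16-CDKN1C. Mrc1, the mannose receptor, stood at 57.1, 103 and 136 CPM in the lowest, median and highest long-term pool and at 456 to 765 CPM in Macro-M2, a ratio of 0.199 (95% interval 0.188 to 0.211). In T22 it stood at 52.3, 69.1, 63.6 and 68.2 CPM, against 116 to 257 CPM. The lectins Mgl2 and Clec10a were at 77.1 against 161 CPM and 13.4 against 29.2 CPM long-term. Arg1, arginase, was at 49.2 CPM against 390.4 CPM long-term, with Macro-M1 the higher in 1 of 8 pools, and had 2 UMIs in T22 Macro-M1.

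**Figure D2:**
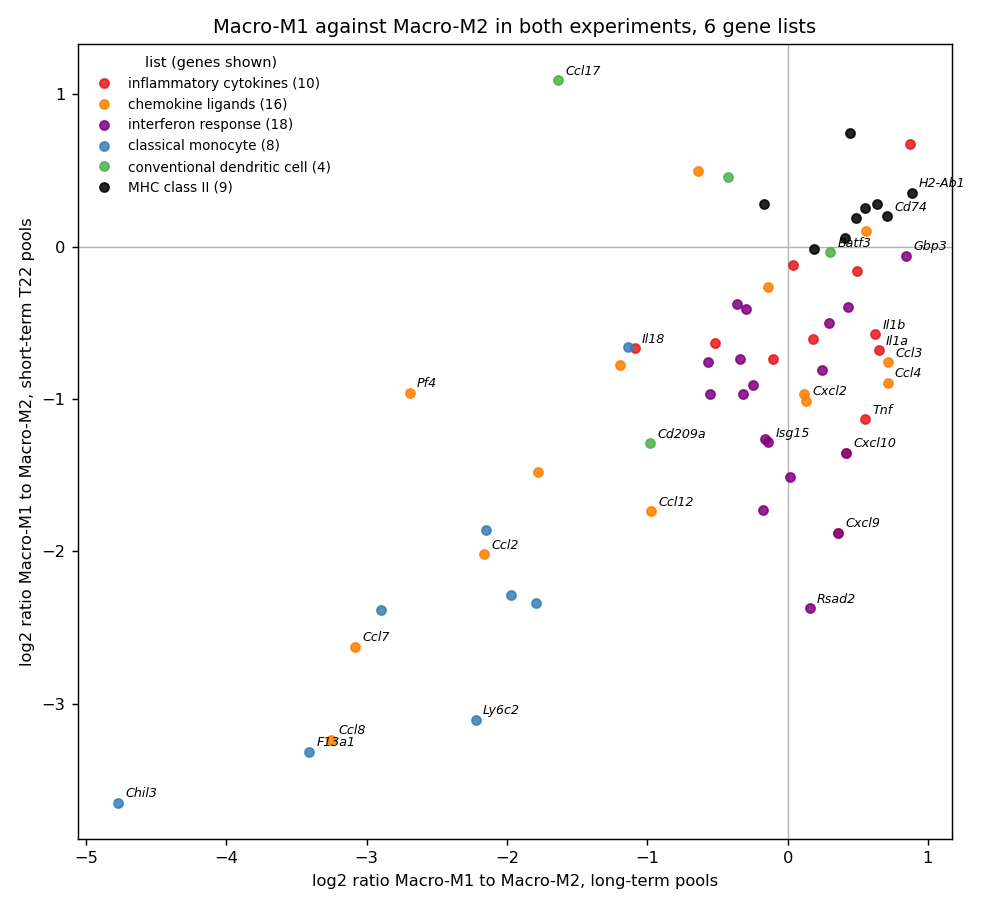
Log2 ratio of Macro-M1 to Macro-M2 for each member of 6 gene lists that was tested in both experiments, long-term on the x axis and short-term T22 on the y axis, 1 CPM added to each side. Classical monocyte genes lie below 0 on both axes (medians -2.19 and -2.36 over the genes tested in each experiment), whereas Il1b lies at 0.62 on the x axis and -0.57 on the y axis.

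By the rule for naming, the 20 genes with the widest lead of long-term Macro-M1 over the next cluster were Gbp2b, Mmp13, Serpina3g, Dnase1l3, Cd69, Nr1h3, Gm5547, H2-M2, Gm48065, Lpl, Zc3h12a, Nlrp3, Hvcn1, Dnmt3a, Sgk1, Il7r, Dcstamp, Gbp2, Tnfaip2 and Cxcl10. Mmp13, a collagenase, was at 163 CPM in Macro-M1 (90.5 to 249 over pools) and 93.7 CPM in Macro-M2. Dnase1l3, a secreted DNase that degrades DNA of dead cells, was at 168 CPM (126 to 206) and 74.4 CPM. H2-M2, a nonclassical MHC class I gene, was at 376 CPM (226 to 560.5) and 174 CPM. These leads were narrow. Macro-others held 89.0 CPM of Mmp13, 103 CPM of Dnase1l3 and 263 CPM of H2-M2. Mmp13 was not higher than in Macro-M2 in every pool (7 of 8), and in T22 it was lower, at 42.0 against 93.3 CPM.

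Nr1h3, which encodes the oxysterol receptor LXR alpha, and its textbook target Lpl, lipoprotein lipase, were both among the 20. Nr1h3 stood at 39.8, 44.8 and 90.1 CPM in the lowest, median and highest long-term pool, against 24.8 to 45.7 CPM in Macro-M2, and at 25.3, 27.0, 27.7 and 27.7 CPM in T22, against 16.1 to 23.0 CPM. The long-term ranges overlapped, although Macro-M1 was the higher in 8 of 8 pools, and the T22 ranges did not. Lpl was at 77.8 CPM against 47.9 CPM long-term and 60.4 against 71.3 CPM in T22. Apoe, the lipid carrier apolipoprotein E and a further target of LXR, was at 649.5 CPM against 422 CPM and 1268 against 1219 CPM. Nr1h3 and Gm5547 were the only 2 of the 20 for which Macro-M1 was still the highest of the 7 clusters in T22.

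Several inflammatory members of the 20 stood above Macro-M2 long-term, by the choice of genes, and below it in T22. Nlrp3, the sensor of the inflammasome that activates interleukin-1 beta, was at 234 against 159.6 CPM long-term and 169 against 277 CPM in T22. Zc3h12a, an RNase that degrades cytokine mRNAs, was at 113 against 76.0 CPM and 84.0 against 132 CPM. Cd69, an early activation antigen, was at 119.6 against 64.5 CPM and 57.1 against 98.9 CPM, and the kinase gene Sgk1 at 393 against 243 CPM and 181 against 197 CPM. For Il7r and Dcstamp no turn was seen. Il7r, the receptor chain for interleukin-7, stood at 192 against 120.4 CPM and 134 against 128 CPM, where the T22 ratio of 1.04 (95% interval 0.974 to 1.12) had an interval that included 1 and Macro-M1 was the higher in 3 of 4 pools, and Dcstamp, which takes part in macrophage fusion, at 154 against 87.1 CPM and 84.5 against 73.9 CPM.

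**Figure D3:**
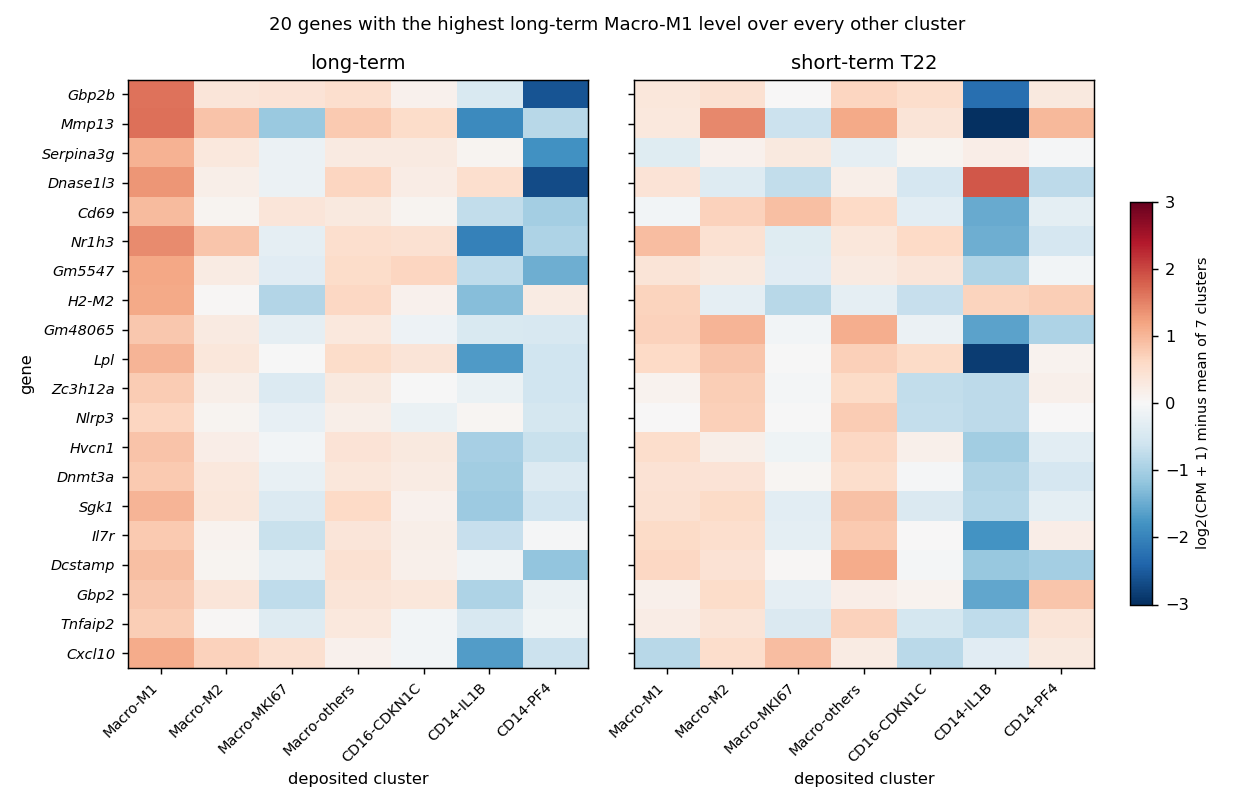
Heat map of the 20 genes with the widest lead in long-term Macro-M1 over the next of the 7 clusters, as log2(CPM + 1) minus the mean of the 7 clusters for the same gene and experiment, long-term beside short-term T22. The Macro-M1 column is the highest for all 20 genes long-term, by the choice of genes, and for Nr1h3 and Gm5547 in T22.

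Only 5 genes were at least 2-fold higher than in Macro-M2 over all long-term cells and higher in every long-term pool, and these were Gbp2b, Cd207, Dnase1l3, H2-M2 and Slamf8. Gbp2b, an interferon-inducible GTPase, was at 35.0 against 14.1 CPM, a ratio of 2.49 (95% interval 2.19 to 2.82), and at 13.8 against 14.9 CPM in T22. Cd207, the lectin langerin, was at 226 against 98.8 CPM, but CD14-IL1B held more, 376 CPM. Slamf8, a surface receptor of the SLAM family, was at 64.7 against 31.5 CPM. At the other end, the genes furthest below Macro-M2 were Cxcl13, Car4, Chil3, Mmp8, Wfdc21, F13a1, Lyve1, Cd209f, Ccl8 and Ifitm1. Cxcl13, which attracts B cells, had 3 UMIs in Macro-M1, 0.255 CPM (0.0526 to 0.746) against 56.0 CPM, and Car4, a carbonic anhydrase, 1 UMI against 37.3 CPM. Wfdc21 was at 16.3 against 188 CPM, Mmp8 at 2.21 against 41.9 CPM and Cd209f at 6.12 against 72.0 CPM. Of the genes lowest in Macro-M1 among all 7 clusters, Ifitm1, Chil3, Cd209b, Gnb4, Plet1, Mmp8, Cd209f, Ndrg1, Slpi and Gpr171, the hypoxia-inducible Ndrg1 stood at 6.38 CPM against 24.4 CPM in Macro-M2 and the antiprotease Slpi at 23.2 against 220.2 CPM.

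Interferon-stimulated genes summed to 3236 CPM in Macro-M1 and 3362 CPM in Macro-M2 long-term, and to 891 and 1869 CPM in T22. Of 18 tested against Macro-M2, 0 were higher or lower long-term (median log2 ratio -0.15), and 7 were lower in T22 (median -0.94), namely Isg15, Ifit1, Ifit2, Ifit3, Rsad2, Cxcl9 and Cxcl10. Rsad2, the antiviral protein viperin, was at 227 against 203 CPM long-term and 24.3 against 130.2 CPM in T22. Isg15, a ubiquitin-like modifier, was at 931 against 1024 CPM and 110.2 against 269.6 CPM. The guanylate-binding proteins differed less in T22, with Gbp2 at 94.7 against 125 CPM, and Gbp3 was among the genes higher than in the mean of the other 6 long-term (125 against 60.9 CPM). In thinned cells, UMIs of at least 3 of the 18 genes were held by 46.8% of Macro-M1 cells long-term (43.7 to 50.0%, pools 36.6 to 58.7%) and 21.0% in T22 (18.7 to 23.4%), beside 51.4% and 26.0% of Macro-M2 cells and 24.0% and 15.6% of CD4_Tcm-TCF7 T cells. Thinning left out 17 long-term and 2 T22 Macro-M1 cells, and the unthinned shares of Macro-M1 were 81.2% and 68.2%.

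Toll-like receptor and NF-kB genes had the same turn in sign as the cytokines, within 2-fold. Of 13 tested, 0 were higher or lower in any comparison of clusters, but the median log2 ratio to Macro-M2 was 0.29 long-term and -0.43 in T22. Tlr2, a receptor for bacterial lipoproteins, was at 251 CPM (195 to 306) against 176 CPM long-term and 261 CPM (246 to 281) against 361 CPM in T22. Rel, an NF-kB subunit, was at 262 against 185 CPM and 402 against 542 CPM. Macro-M1 was the highest of the 7 clusters for 6 of the 13 genes long-term and 0 in T22. The same turn was seen in Atf3, a stress-induced transcription factor of the immediate early group (539 against 386 CPM long-term and 386 against 594 CPM in T22), and Cd83, an activation marker (514 against 380.0 CPM and 347 against 526 CPM). The immediate early genes as a whole had a median log2 ratio to Macro-M2 of -0.15 long-term and -0.66 in T22 over 14 genes.

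Most complement, lysosome and lipid genes of Macro-M1 were within 2-fold of Macro-M2. Of the complement genes 2 of 10 were lower than in Macro-M2 long-term, Cfp and C4b, and 1 of 9 in T22, C5ar1. C1qa, 1 of 3 genes of the complement protein C1q that tags dying cells, stood at 10025 CPM (9450.3 to 10682) long-term against 8632 CPM in Macro-M2 and 10099 CPM in Macro-others, and at 6341 against 5401 and 7890.0 CPM in T22. C5ar1, the receptor for the complement fragment C5a, was below Macro-M2 in both experiments. It stood at 103, 142 and 173 CPM in the lowest, median and highest long-term pool against 177 to 296 CPM in Macro-M2, and at 63.2, 66.3, 64.1 and 66.0 CPM in T22 against 144 to 159.8 CPM, without overlap of pools in either. The ratio was 0.592 (95% interval 0.561 to 0.624) long-term and 0.423 (95% interval 0.391 to 0.458) in T22. In thinned cells, 30.9% of Macro-M1 and 41.6% of Macro-M2 cells held a C5ar1 UMI long-term, and 16.1% and 27.3% in T22, against 0.975% and 0.0903% of CD4_Tcm-TCF7 T cells, which should lack the gene. Without thinning the Macro-M1 shares were 67.0% and 42.1%. The other anaphylatoxin receptor, C3ar1, was at 303 against 338 CPM and 304 against 345 CPM. Cfp, properdin, was at 182 against 404 CPM long-term.

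Macro-M1 was the highest of the 7 clusters for 8 of 16 lysosomal genes long-term and 1 of 15 in T22, with 0 higher or lower than in Macro-M2 in either. Ctss, the protease that trims the invariant chain, was at 7646 against 6244 CPM long-term and 5393 against 5290.4 CPM in T22. Acp5, tartrate-resistant acid phosphatase, was higher than in the mean of the other 6 long-term (1764 CPM against 1017 CPM in Macro-M2). Trem2, the lipid receptor of lipid-associated macrophages, was at 563 against 512 CPM and 529 against 518 CPM. Spp1, osteopontin, was the lowest of the 7 clusters long-term at 560.2 CPM against 1573 CPM, and the highest in T22 at 282 against 208 CPM. Of 13 genes of lipid-associated macrophages 0 were higher and 1, Spp1, lower than in Macro-M2 long-term, and 0 higher or lower in T22. The efferocytosis receptor Axl was at 213 against 173 CPM and 378 against 342 CPM, and Mertk, of the same family, at 31.2 against 40.1 CPM and 21.2 against 26.7 CPM. Vcam1, an adhesion molecule of many tumor macrophages, stood at 959.8 against 664 CPM and 307 against 326 CPM.

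Of the growth factor receptors and lineage regulators 1 of 12 tested, Maf, was lower than in Macro-M2 long-term, and 0 of 13 were higher or lower in T22. Irf8, an interferon regulatory factor of the myeloid lineage, was at 263 against 208 CPM long-term and 429.5 against 333 CPM in T22. Cebpb was at 1032 against 1304 CPM and 419.8 against 832 CPM. Cx3cr1, the fractalkine receptor, stood at 249 against 191 CPM and 510.1 against 456 CPM. Of the checkpoint and costimulation genes 0 of 10 long-term and 0 of 11 in T22 were higher or lower than in Macro-M2. Cd274, which encodes PD-L1, was at 17.3 against 20.8 CPM and 17.1 against 24.2 CPM. Of 5 Fc gamma receptor genes 0 were higher or lower in both experiments, and of 13 glycolysis and hypoxia genes 2 were lower long-term (Ndrg1 and Hilpda) and 1 in T22 (Ndrg1).

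The study's own marker lists were chosen on these cells and are not independent evidence. Macro-M1 was the highest of the 7 clusters long-term for 15 of 25 genes of the TAM_C0 list and 18 of 25 of TAM_C1, against 4 of TAM_C3, 2 of TAM_C4 and 1 of Mono_C2. It was the highest for 3 of the 8 Mono_C5 genes tested. In T22 the counts were 3, 3, 0, 2, 1 and 0 in that order.

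**Figure D4:**
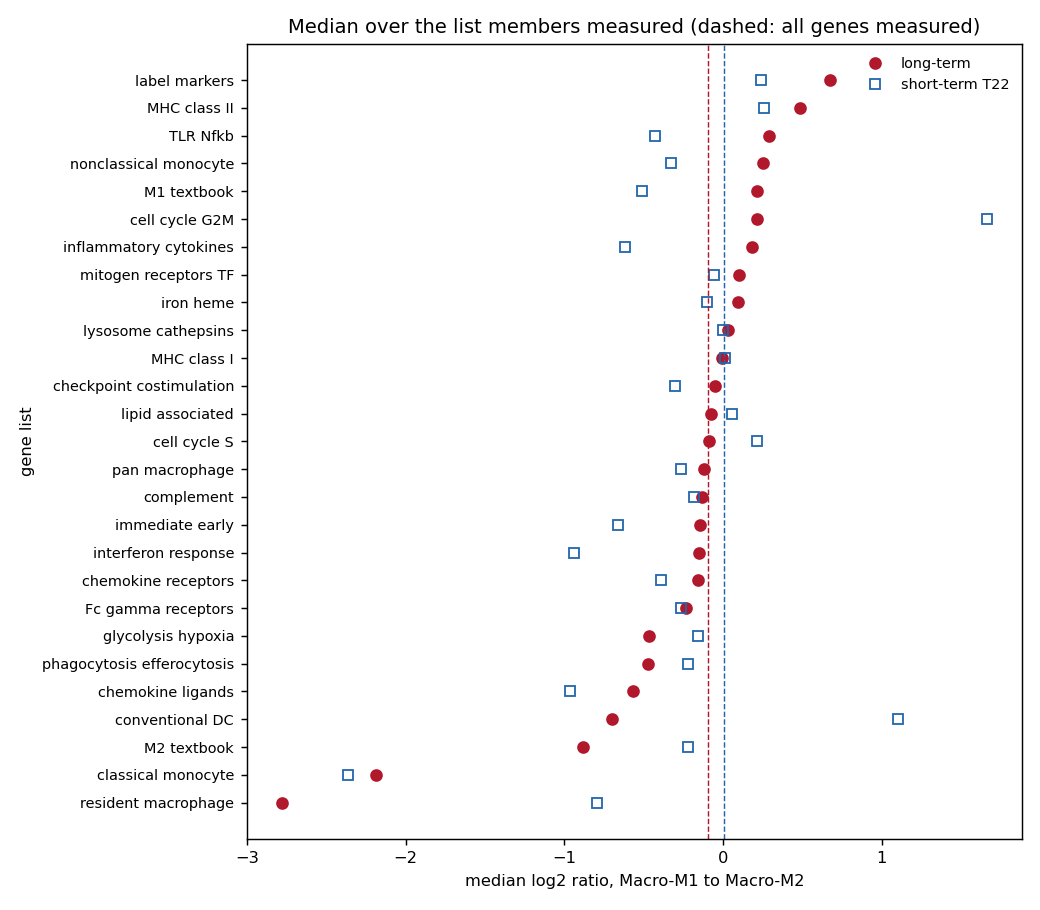
Median log2 ratio of Macro-M1 to Macro-M2 for each gene list, filled points long-term and open points short-term T22, with the median over all genes dashed. The resident macrophage list lies at -2.78 long-term and -0.79 in T22, and the list of M1 genes at 0.22 and -0.51.

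The 61 genes higher than in Macro-M2 in T22 included conventional dendritic cell genes and cell cycle genes. Xcr1, the chemokine receptor of the cross-presenting dendritic cell type, was at 39.5 CPM (25.9 to 46.0) against 0.549 CPM in Macro-M2, and at 0.340 CPM in long-term Macro-M1. Flt3, the receptor on which dendritic cells depend, was at 23.2 against 10.2 CPM in T22 and 0.425 against 0.463 CPM long-term. Ccr7, the receptor by which mature dendritic cells reach lymph nodes, was at 64.6 against 23.2 CPM in T22 and 5.27 against 9.13 CPM long-term, and Fscn1, fascin, at 45.8 against 4.06 CPM and 3.06 against 9.28 CPM. In all, 5 of 10 tested dendritic cell genes were higher than in Macro-M2 in T22 and 1, Cd209a, lower, whereas 0 of 4 were higher or lower long-term. Against the mean of the other 6 clusters, 7 of 8 dendritic cell genes were lower long-term (median log2 ratio -3.01), where CD14-IL1B held 3456 CPM of the 12 summed and Macro-M1 262 CPM. Ccl22, a chemokine of mature dendritic cells, was at 33.3 against 9.33 CPM. CD14-IL1B held more of them, with Xcr1 at 575 CPM, Flt3 at 156 CPM and Ccr7 at 208 CPM. Summed over 12 genes the level in T22 was 615 CPM in Macro-M1, 410.1 CPM in Macro-M2, 205 CPM in Macro-others and 2705 CPM in CD14-IL1B.

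The dendritic cell genes were concentrated in a minority of cells. UMIs of at least 3 of the 12 genes were held by 143 of 1201 thinned Macro-M1 cells in T22, 11.9% (10.1 to 13.9%, pools 10.4 to 13.2%), and by 11 of 965 long-term, 1.14% (0.570 to 2.03%). In Macro-M2 the shares were 6.12% and 2.28%, in CD14-IL1B of T22 75.5%, and in the CD4_Tcm-TCF7 T cells 0.542% and 0.585%. Unthinned, the Macro-M1 shares were 19.0% and 4.99%. Of the 143 T22 cells, 81.1% held no UMI of C1qa, C1qb or C1qc, against 9.55% of the other 1058 cells, and their median share of MHC class II UMIs was 3.50% against 4.43%. Without them, Ccr7 turned from a log2 ratio to Macro-M2 of 1.44 to -1.70 and Flt3 from 1.11 to -1.14, Fscn1 from 3.21 to -0.25 and Itgae from 1.93 to -0.38, as follows from leaving out the cells that hold them, and the Macro-M1 share of T22 cells was 7.09%. Whether these cells are macrophages, dendritic cells or doublets was not tested.

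Cell cycle genes of the G2 and M phases were higher in Macro-M1 than in Macro-M2 for 9 of 11 tested in T22 (median log2 ratio 1.66) and for 0 of 8 long-term (0.21). Top2a, a topoisomerase of dividing cells, stood at 154, 100.1, 164 and 205 CPM in T22 against 28.8 to 65.0 CPM in Macro-M2, and at 65.5 against 47.8 CPM long-term. Birc5, survivin, was at 62.5 against 15.5 CPM in T22. Summed over 14 genes the level was 717 CPM in T22 Macro-M1, 251 CPM in Macro-M2, 998 CPM in Macro-others and 4486 CPM in Macro-MKI67, the cluster of dividing cells. At least 3 of the 14 genes were held by 8.41% of Macro-M1 cells in T22 (6.90 to 10.1%) and 4.87% long-term (3.60 to 6.42%), beside 4.33% and 10.3% of CD4_Tcm-TCF7 T cells. The long-term share lay below that of the T cells. Unthinned, the Macro-M1 shares were 18.3% and 11%. The Macro-M1 cells with these genes had a median of 19300 UMIs in T22, against 13577 in the others.

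Between the 2 experiments, long-term Macro-M1 cells held more hemoglobin, interferon-stimulated and glycolytic transcripts and fewer dendritic cell transcripts than T22 Macro-M1 cells. With the ranges of pools not overlapping and a 2-fold difference, 98 of 7035 genes (1.39%) were higher long-term and 816 (11.6%) lower. The median log2 ratio over all genes was -0.29, and with ratios centred on it the counts were 222 and 255, so the split between higher and lower depends on the centring. The count of lower genes also depended on the low values, with 239 at a pseudocount of 10 CPM and 1403 with no filter on low values. The same median was -0.21 in Macro-M2. The experiments differ in time, tumor strains and co-transplantation and were prepared as separate pools, which cannot be told apart here. The difference in Macro-M2 is given beside that in Macro-M1 for each gene whose ratio is given.

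Of 18 interferon-stimulated genes 11 were higher long-term and 0 lower, with a median log2 ratio of 1.49. Isg15 stood at 667, 831 and 1349.7 CPM in the lowest, median and highest long-term pool and at 99.0, 105, 97.0 and 138 CPM in T22, a ratio of 8.45 (95% interval 8.05 to 8.87). Ifit3 stood at 125, 164 and 191 CPM long-term and 13.8, 13.4, 16.5 and 19.8 CPM in T22. The log2 ratios were 3.07 for Isg15, 3.24 for Ifit3 and 3.17 for Rsad2 in Macro-M1, and 1.92, 1.68 and 0.64 in Macro-M2. Ccl12, a monocyte chemokine, differed by 2.81 in Macro-M1 and 2.05 in Macro-M2. Among the 10 genes furthest up were also Ifit3b and Cmpk2, both interferon-inducible, and Ifit3 and Ifit3b are near-identical copies whose reads can be split between them.

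Hemoglobin led the list. Hbb-bs stood at 1792 CPM long-term and 0.342 CPM (0.126 to 0.745) in T22, a log2 ratio of 10.38 in Macro-M1 and 10.19 in Macro-M2. Hba-a1 was at 998 CPM and Hbb-bt at 184 CPM long-term, and both had 0 UMIs in T22, which allows up to 0.210 CPM. Alas2, the heme synthesis enzyme of red cell precursors, was at 3.66 CPM. Arg1 was at 49.2 CPM long-term (11.4 to 143 over pools) and 0.114 CPM (0.0138 to 0.412) in T22, a log2 ratio of 5.49 against 8.46 in Macro-M2. Of 12 glycolysis and hypoxia genes 4 were higher long-term, Aldoa, Gapdh, Eno1 and Hilpda, with Gapdh at 1423 and 468 CPM (log2 ratio 1.60, and 2.08 in Macro-M2). Summed, the list stood at 4078 CPM long-term and 1946 CPM in T22 in Macro-M1, and at 5622 and 2077 CPM in Macro-M2. The hemoglobin level in Macro-M1 and Macro-M2 differed alike between the experiments, and its part in the other differences was not tested. Of the M1 genes Il1b (log2 ratio 1.25) and Cxcl10 (1.95) were higher long-term, while Il1b differed by 0.06 and Cxcl10 by 0.18 in Macro-M2. C5ar1 was higher long-term as well, by 1.08 in Macro-M1 and 0.61 in Macro-M2.

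Lower long-term were 6 of 10 dendritic cell genes, among them Xcr1 (log2 ratio -4.92), Itgae, an integrin (-4.52), Flt3 (-4.09), Fscn1 (-3.52), Ccr7 (-3.39) and the peptidase gene Dpp4 (-2.99). In Macro-M2 the same ratios were 0.33 for Xcr1, -2.26 for Itgae, -2.94 for Flt3, 1.02 for Fscn1, -1.25 for Ccr7 and -1.40 for Dpp4, so that Xcr1 and Fscn1 had the other sign there. The 10 genes furthest down also held Kit, a growth factor receptor (-3.50), Ccl22 (-3.46) and the histone genes Hist1h3c (-2.89) and Hist1h3f (-2.63), which dividing cells express and whose copies are alike. Macro-M2 had -1.88 for Kit, -0.95 for Ccl22, -1.53 for Hist1h3c and -1.47 for Hist1h3f. Macrophage genes among the lower were Cx3cr1, at 192, 248 and 291 CPM long-term and 518, 563, 478 and 483 CPM in T22, Ciita (log2 ratio -1.53, and -1.82 in Macro-M2) and the NF-kB subunit Nfkb1 (-1.01, and -1.24 in Macro-M2). Cx3cr1 differed by -1.25 in Macro-M2, more than the -1.03 of Macro-M1. The mitochondrial share of UMIs in Macro-M1 was 0.629% long-term and 0.903% in T22, and that of ribosomal protein genes 16.1% and 18.8%.

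**Figure D5:**
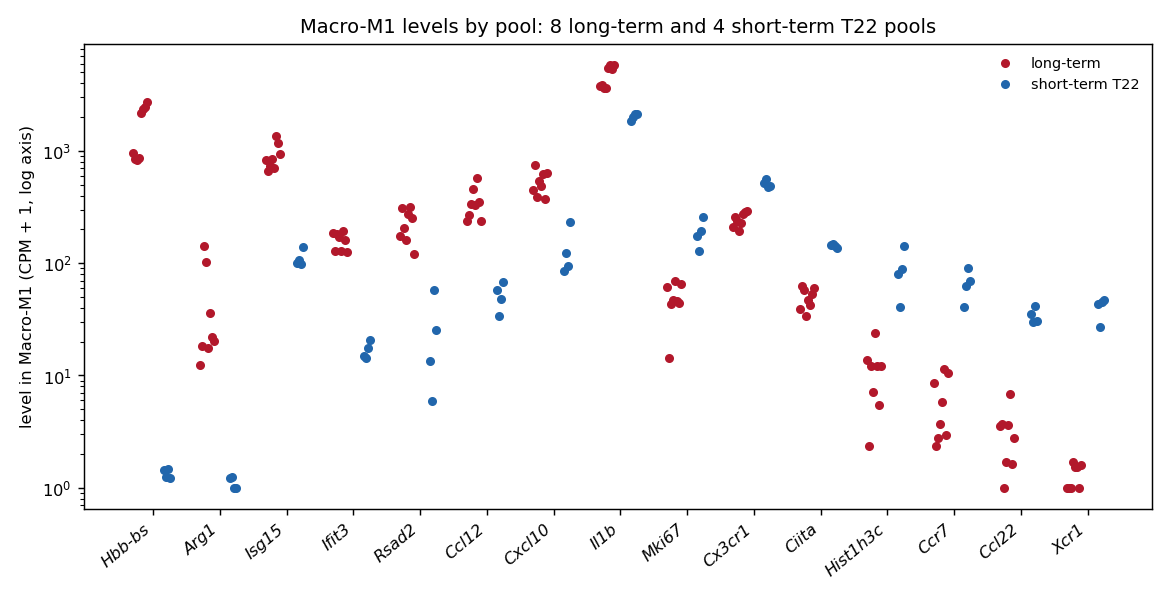
Level of 15 genes in Macro-M1 by pool (log axis, CPM + 1), the 8 long-term pools beside the 4 short-term T22 pools. Hbb-bs lies at 827 to 2725 CPM in the long-term pools and at 0.342 CPM over the T22 pools, while Xcr1 and Ccr7 lie lower in the long-term pools.

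The spread between single cells was described in cells thinned to 3000 UMIs. The excess of the variance over that of Poisson counting, relative to the squared mean, had a median of 0.189 over 2415 genes with at least 50 CPM long-term. By this measure the 15 most variable genes were Ccl8, Retnla, Lyz1, S100a9, Ccl7, Hist1h1b, Cxcl9, Rsad2, Fn1, Clec4b1, Ccl2, Fcrls, Hist1h2ae, Ly6a and Mgl2. Shares of cells with a UMI are given beside those of CD4_Tcm-TCF7 T cells, which should lack the macrophage genes among them and whose median depth was 2758 UMIs long-term, against 11639 UMIs in Macro-M1, and 6403 against 13810 UMIs in T22. Thinning left out 623 of 1136 long-term T cells as too shallow. Ccl8 had an excess of 75.4 at 112 CPM, and 4.35% of Macro-M1 and 6.43% of T cells held a UMI of it, with overlapping intervals. Whether background adds to these shares was not tested. The shares of S100a9, a neutrophil and monocyte gene, were 3.32% and 5.07%, with overlapping intervals. Below the T cells were the histone genes Hist1h1b (4.66% and 9.36%) and Hist1h2ae (6.22% and 10.7%) and Ly6a (13.7% and 49.5%), which T cells also express. Fn1 was detected in 12.4% of Macro-M1 and 11.5% of T cells, with overlapping intervals. Above the T cells long-term stood Cxcl9, in 7.77% of Macro-M1 and 0.780% of T cells long-term and in 4.66% and 0.226% in T22, and Rsad2, in 11.6% of Macro-M1 and 3.51% of T cells long-term. In T22 the shares of Rsad2 were 3.25% and 3.29%, at the level of the T cells. Ccl2 was detected in 11.2% of Macro-M1 and 2.92% of T cells and the lectin Mgl2 in 9.64% of Macro-M1 and 0.390% of T cells. Retnla, a secreted protein of M2 macrophages, was detected in 3.63% of Macro-M1 and 1.36% of T cells, and Ccl7 in 4.15% of Macro-M1 and 2.73% of T cells, 2 pairs of shares whose intervals overlap. The shares of Lyz1, Clec4b1 and Fcrls were 3.21%, 6.32% and 6.32% in Macro-M1, against 0%, 0% and 0.390% in T cells, where 0 allows a share of up to 0.717%. Without thinning the long-term Macro-M1 shares were 11.9% for Ccl8 (T cells 7.75%), 11.7% for Cxcl9, 19.2% for Rsad2, 17.7% for Mgl2 and 30.8% for Fn1. Single pools weighed heavily on some of these levels. Retnla ranged from 1.33 to 1289 CPM over the long-term pools and S100a9 from 10.5 to 307 CPM. Without pool 8 the long-term S100a9 level was 56.7 CPM in place of 92.9 CPM, and without pool 2 the T22 level was 1.66 CPM in place of 25.4 CPM.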

How the data were processed

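Single-cell RNA-seq (10x Genomics 3' v3.1) of hashtag-multiplexed tumors was used. The authors made the counts with Cell Ranger 6.0.0 against GRCm38, introns included, filtered cells in SCANPY, removed doublets with Scrublet and deposited raw whole-number counts of UMIs for 32285 genes per cell with a table of cluster names. The labels name CellPlex oligos and the study's methods hashtag antibodies. A second, filtered table of about 4000 genes was not used.

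Counts were summed per cluster and pool with pandas 2.3.3, numpy 2.4.6, pyarrow 21.0.0 and scipy 1.17.1 under Python 3.11.15, and plotted with matplotlib 3.10.9. A long-term barcode of 16 bases found in several pools was kept once, at its deepest copy. Ratios used a pseudocount of 1 CPM. The mean of the other 6 clusters weighted each equally, with at least 20 cells. Differences between experiments were counted where the ranges of pools did not overlap. Doublets were not called again. Instead, as an alternative, the deepest 5% of every pool's cells were left out. Scripts were tested on simulated data.

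Named genes were the 20 with the widest lead over the highest of the other 6 clusters long-term (at least 20 CPM) and the 10 furthest below the lowest, the 10 highest and 10 lowest against Macro-M2 and between experiments among the genes counted, all members of fixed lists, and the 15 most variable with at least 50 CPM. Genes outside these were chosen after their values were seen. Members and lists were chosen with earlier results of these data known. The results were recomputed with all deposited cells, a pseudocount of 10 CPM, no filter on low values, cells of at least 3000 UMIs or 1000 genes, CPM without mitochondrial and ribosomal protein genes, summed UMIs of the other clusters, and each pool left out. Chosen after seeing the data were leaving out cells with a barcode in more than 1 long-term pool or with at least 3 dendritic cell genes, a mean of 4 other clusters without CD14-IL1B and CD14-PF4, centred ratios, and, for Chil3, S100a9 and Ccl8, leaving out the pool with the highest level.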

Additional observations from a re-analysis of the deposited data

Results flagged for a closer look

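Dixon's test at 95% was run on 76 sets of pools. Each set was the summed level of a gene list in Macro-M1, or the Macro-M1 share of cells, in 1 experiment. Of these sets 9, all of them gene lists, held a pool far from the others, where chance flags about 1 in 20. Long-term these were the lipid-associated list, with 1 pool at 9431.6 CPM against a median of 7908 CPM, the list of transcription factors and growth factor receptors, with 4990.9 CPM against 4451 CPM, and the NK cell markers, with 62.4359 CPM against 7.99 CPM. In T22 they were the M2 genes (561.2 CPM in pool 3 against 485 to 491 CPM), the resident macrophage genes (1117.3 CPM in pool 2 against 897 to 924 CPM), the Toll-like receptor and NF-kB genes (2898.8 CPM in pool 3 against 2794 to 2803 CPM), the S phase genes (380.7 CPM in pool 3 against 517 to 539 CPM), the neutrophil markers (173.0 CPM in pool 2 against 12.0 to 13.8 CPM) and the mast cell markers (0.2179 CPM, a single UMI, in pool 4 against 0 in the others).

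For some lists and genes the ratio of Macro-M1 to Macro-M2 lay above 1 in every long-term pool and below 1 in every T22 pool, or the reverse. The difference itself was not tested. It was seen for 5 of 37 summed lists, of which the M1 and cytokine lists both hold Il1b and Tnf. The log2 ratio long-term minus that in T22 was 1.1119 for the M1 genes (0.50 and -0.61), 1.0584 for the cytokines (0.51 and -0.55), 0.7053 for the Toll-like receptor and NF-kB genes (0.27 and -0.43), 0.3832 for the checkpoint and costimulation genes (0.17 and -0.22) and -1.1715 for the conventional dendritic cell genes (-0.59 and 0.58).

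Of 258 named genes 19 showed the same turn. The share over all genes was not counted, so neither 19 of 258 genes nor 5 of 37 lists can be set against a background. The genes are listed as a description only. Cd69, Nlrp3, Zc3h12a, Tnfaip2 and Sgk1 were named for their lead in long-term Macro-M1, so their higher long-term level follows from that choice. Gpr171 was named for its low level there. Above Macro-M2 long-term and below it in T22 were Cd69 (difference of log2 ratios 1.6640), Ccl4 (1.6069), Ccl3 (1.4748), Il1a (1.3266), Nlrp3 (1.2530), Zc3h12a (1.2157), Il1b (1.1975), Atf3 (1.1001), the chemokine-binding receptor Ccrl2 (1.0339), Cd83 (1.0326), Tlr2 (0.9768), Rel (0.9296), Tnfaip2 (0.8781) and Sgk1 (0.8158). The reverse order was that of Gpr171 (-2.5436), the epithelial adhesion gene Cdh1 (-2.3384), Spp1 (-1.9259), the tetraspanin Cd9 (-1.4560) and the replication gene Mcm6 (-0.4565). Cdh1 and Gpr171 were low throughout. In these comparisons strain, length of treatment, co-transplantation and the set of pools cannot be told apart. The long-term pools 1 to 4 and 5 to 8 both showed the direction.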

How the results depend on the processing

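No result came with a p-value, so the alternatives show how counts and values moved. With a pseudocount of 10 CPM, 14 genes were higher and 170 lower than in the mean of the other 6 clusters long-term, 3 higher and 96 lower than in Macro-M2, 0 and 53 against the mean of 6 in T22, 27 and 46 against Macro-M2 in T22, and 239 lower long-term than in T22. With no filter on low values the counts were 659 lower against the mean of 6 and 8 higher and 321 lower against Macro-M2 long-term, 8 and 314 against the mean of 6 and 194 and 145 against Macro-M2 in T22, and 1403 lower long-term than in T22. With cells of at least 3000 UMIs only, 1 gene was higher than the mean of 6 in T22. With the UMIs of the other 6 clusters summed, 2 were higher and 102 lower long-term and 25 lower in T22. With ratios centred on the median, 47 were higher than the mean of 6 and 8 higher than Macro-M2 long-term, and 222 higher and 255 lower long-term than in T22. Without CD14-IL1B and CD14-PF4, 4 genes were higher than the mean of the remaining clusters long-term and 13 in T22, and the log2 ratios of Ccl22 (1.58), Clec9a (1.81), Il12b (0.76) and Xcr1 (2.43) reversed. Without cells holding at least 3 dendritic cell genes, 8 genes were higher and 226 lower than the mean of 6 in T22, 123 lower than in Macro-M2, and the T22 ratios to Macro-M2 of Ccr7 (-1.70), Flt3 (-1.14), Fscn1 (-0.25), Itgae (-0.38) and Kit (-0.37) reversed. The last follows from how the cells were chosen. No other alternative tried here reversed a named gene that had counted as higher or lower. Lists were not counted in this way, and some of their median log2 ratios changed sign. This was so for 23 of 199 medians with no filter on low values and 11 of 199 with centred ratios. With summed UMIs it was 15 of 78, without CD14-IL1B and CD14-PF4 17 of 79, and without the cells with dendritic cell genes 10 of 199. For the other changes the cause was not tested.

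The Macro-M1 share was 6.36% long-term and 15.3% in T22 of the 7 clusters, and in T22 9.46% of cells with at least 1000 genes, 8.29% without the top 5% of cells by UMIs and 7.09% without the cells with dendritic cell genes. With each pool left out in turn, the counts of higher and lower genes ran from 22 to 30 and from 263 to 285 against the mean of 6 long-term, from 4 to 6 and 156 to 180 against Macro-M2 long-term, from 1 to 5 and 108 to 149 against the mean of 6 in T22, from 50 to 69 and 70 to 97 against Macro-M2 in T22, and from 97 to 110 and 728 to 899 between experiments. The T22 count against the mean of 6 was 1 without pool 2 and 5 without pool 4. The shares ran from 3.72% to 4.01% and from 7.88% to 8.09%. Between experiments no pairing was possible, because pool numbers only name the pools. Clusters were compared within pools for direction only, and no comparison was tested. Counting depth limits genes with few UMIs, and intervals do not cover differences between mice.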
